A study of Mus musculus with 6 samples.

Results

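The islet hormone genes encode peptides that endocrine cells of the pancreas make, and 8 of them were followed here out of 24010 named genes. They were chosen by symbol, as Gcg, Ins2, Sst, Ppy, Pyy, Ghrl, Iapp and Gast, and each had 1 row in the table. RNA came from dorsal pancreatic buds that were dissected from mouse embryos at E11.5 and cultured for 24 h. Buds were exposed to I-BET151 at 500 nM or to JQ1 at 100 nM, and control buds (CTRL) to 0.1% DMSO, the solvent. Each of the 3 groups had 2 Affymetrix arrays, and each array carried RNA from a pool of 10 buds. The labels give no strain, genotype, sex or litter, and do not say whether pools came from separate cultures. The p-values therefore reflect only how far these pools differ, and that spread may be technical.

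In the mouse, glucagon-producing cells are among the earliest endocrine cells of the dorsal bud, and insulin, somatostatin and pancreatic polypeptide cells become numerous only later in gestation. Peptide YY is made together with other hormones in many early islet cells, and ghrelin marks a cell type that is mostly found before birth. All these peptides are cut from longer precursors inside secretory granules. I-BET151 and JQ1 occupy the acetyl-lysine pockets of the BET bromodomain proteins, which read acetylated chromatin and help RNA polymerase to elongate. The comparison asks how hormone transcripts respond when that reading is blocked.

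The sequences just before 4 of the hormone start sites are printed to show which of 3 known promoter motifs they hold. RefSeq sequences of GRCm38.p6 were found for 7 of the 8 genes by symbol, all but Ins2. The 250 bases before the start are shown 5′ to 3′ on the gene's own strand. Capitals mark TATAAA (on that strand), the cyclic AMP response element TGACGTCA, and CAGATG or CATCTG, one form of the E-box that factors of the Neurod1 family bind (both strands). The Gcg window lies at chr2:62483654-62483903 on the minus strand, Iapp at chr6:142298175-142298424 on the plus strand, Sst at chr16:23890845-23891094 on the minus strand, and that of the most upstream of 4 listed Ghrl starts at chr6:113719912-113720161 on the minus strand.
Gcg: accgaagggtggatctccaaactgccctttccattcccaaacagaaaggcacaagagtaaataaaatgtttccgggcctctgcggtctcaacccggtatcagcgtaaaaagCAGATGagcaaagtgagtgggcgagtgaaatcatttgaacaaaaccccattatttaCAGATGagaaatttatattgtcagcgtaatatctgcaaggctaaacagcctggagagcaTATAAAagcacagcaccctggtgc
Iapp: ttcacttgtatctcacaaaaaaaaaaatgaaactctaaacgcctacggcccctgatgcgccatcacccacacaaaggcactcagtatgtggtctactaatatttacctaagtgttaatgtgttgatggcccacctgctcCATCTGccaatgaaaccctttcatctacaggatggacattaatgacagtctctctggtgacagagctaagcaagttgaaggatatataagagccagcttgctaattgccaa
Sst: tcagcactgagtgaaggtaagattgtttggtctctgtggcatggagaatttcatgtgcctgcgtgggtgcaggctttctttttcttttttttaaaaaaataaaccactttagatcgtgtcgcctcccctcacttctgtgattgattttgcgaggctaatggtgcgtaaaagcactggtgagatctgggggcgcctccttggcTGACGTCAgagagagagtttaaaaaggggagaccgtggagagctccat
Ghrl: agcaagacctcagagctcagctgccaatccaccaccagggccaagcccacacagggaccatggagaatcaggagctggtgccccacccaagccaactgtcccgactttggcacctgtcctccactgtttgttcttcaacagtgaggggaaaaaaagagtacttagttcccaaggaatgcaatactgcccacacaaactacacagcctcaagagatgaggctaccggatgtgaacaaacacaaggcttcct

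The Gcg window held 2 of these E-boxes, which begin at -139 and -83 from the start, and a TATAAA at -24. The Iapp window held 1 E-box, at -111, and the Sst window 1 cyclic AMP response element, at -48. The printed Ghrl window held none of these letters, nor did the windows before its other starts or those of Pyy and Gast. Ppy held a TATAAA at -31. No matches overlapped. Across 32851 promoter windows of the same length, 14.4% held the E-box, 7.59% TATAAA and 1.55% the response element. A match describes the letters only, and no binding was measured.

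None of the 8 hormone genes passed the test under I-BET151 or JQ1. Their largest ratio to control was that of Ghrl under JQ1, at 1.44, and Gcg, the bud's glucagon gene, stood at 0.975 under I-BET151 and 0.919 under JQ1. Genes were called at a limma adjusted p under 0.05 over the 24010 genes, and 0 of 8 passed under I-BET151, where 1.13% of all genes did. Under JQ1 0 of 8 passed, beside 3.80% of all genes, and for the mean of both inhibitors 0 of 8 beside 4.92%. At an unadjusted p under 0.05, limma gave 0 of 8 under I-BET151 (18.9% of all genes) and 1 of 8 under JQ1, Ghrl (21.6%). The median log2 change of the 8 genes was 0.06 under I-BET151 and -0.04 under JQ1, and that of all genes 0.00 and 0.02. Not all 8 were bright. Ins2 (9 to 11) and Iapp (18 to 23) were dim, and Ppy (51 to 61) and Sst (55 to 77) lay near the array medians of 54 to 57. For these rows the lack of a call does not show that an expressed hormone gene held steady. The doses of the compounds differ, so their values stand side by side and were not tested against each other. Without any 1 of the 6 arrays no gene of the table was called under either inhibitor, whereas once genes dimmer than the median were dropped as well, 395 to 1059 were called under I-BET151 and 968 to 2221 under JQ1. In RNA of whole buds, fewer cells of a type and less RNA per cell cannot be told apart.

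**Figure D1:**
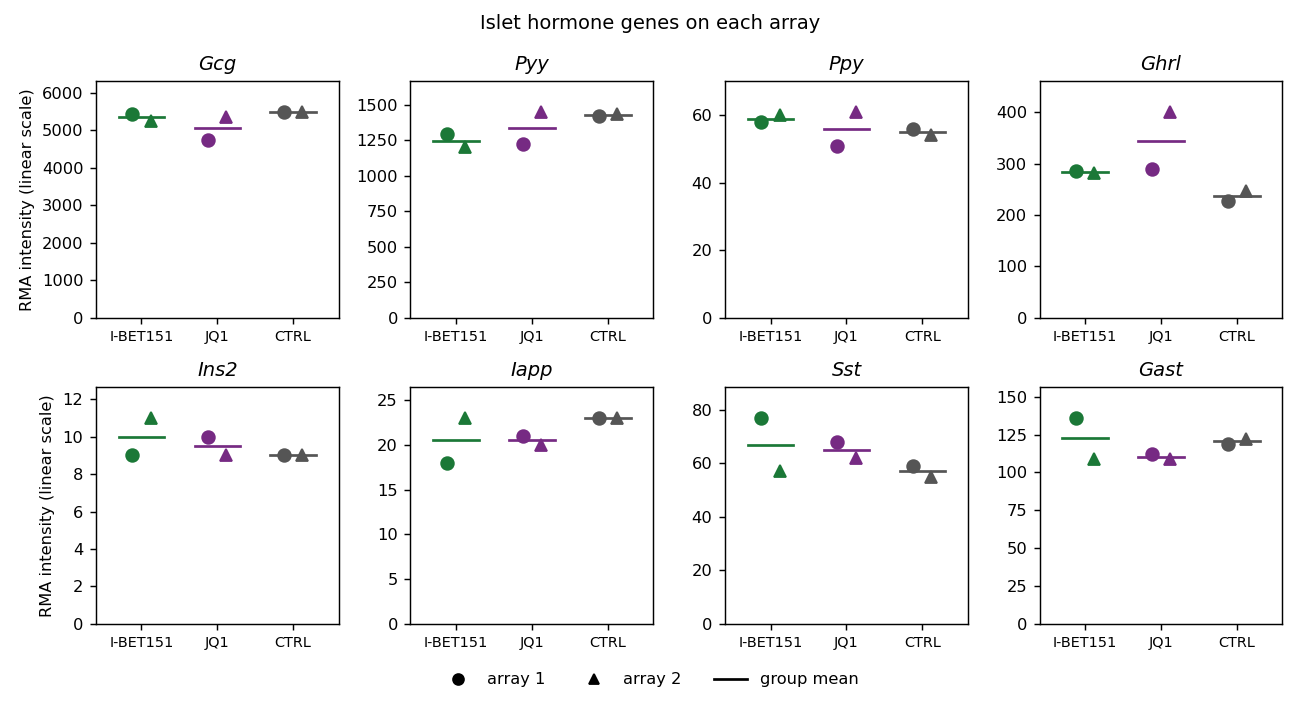
Normalized intensity (linear scale, from 0) of each hormone gene on each array, by group, with circles for array 1, triangles for array 2 and a line for the group mean. Gcg lies between 4740 and 5494 on all 6 arrays, and Ghrl is above both control arrays on all 4 inhibitor arrays.

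Gcg encodes proglucagon, the precursor of glucagon and of the glucagon-like peptides. Its intensity was 5442 and 5256 in I-BET151 buds, 4740 and 5364 in JQ1 buds, and 5478 and 5494 in control buds. All 4 inhibitor arrays lay below both control arrays, by small amounts, and the lowest value was that of the first JQ1 array. The log2 change was -0.04 ± 0.08 under I-BET151 (SE; limma adjusted p = 0.852) and -0.12 ± 0.08 under JQ1 (adjusted p = 0.467). The 95% interval of the ratio to control ran from 0.844 to 1.13 for I-BET151 and from 0.796 to 1.06 for JQ1. A Gcg intensity ratio as low as that of Cckar, a hormone receptor gene, is thus outside both intervals. Cckar was 6.22-fold lower in I-BET151 buds and 10.6-fold lower in JQ1 buds. Whether intensity follows RNA amount evenly at the brightness of Gcg was not tested. With each array centred on its median, the sign of the I-BET151 value turned, at a log2 change of 0.0148.

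Pyy and Ppy, neighbours on chromosome 11, encode peptide YY and pancreatic polypeptide, related peptides that act through the Y receptors. Pyy was measured at 1295 and 1201 in I-BET151 buds, 1223 and 1450 in JQ1 buds, and 1424 and 1435 in control buds. Both I-BET151 arrays were below the controls, whereas the JQ1 arrays lay on either side of them. The log2 change of Pyy was -0.20 ± 0.10 under I-BET151 (limma adjusted p = 0.392) and -0.10 ± 0.10 under JQ1 (adjusted p = 0.640). Ppy, the dimmer row, was at 58 and 60 in I-BET151 buds, 51 and 61 in JQ1 buds, and 56 and 54 in control buds. The I-BET151 arrays were just above the controls and the JQ1 arrays spanned them. Ppy had log2 changes of 0.10 under I-BET151 and 0.02 under JQ1, with adjusted p of 0.655 and 0.955 by limma.

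Ghrl, the ghrelin gene, had the largest log2 difference from control among the 8 under JQ1, with all arrays and without any 1 of them. With I-BET151 Ghrl came first over all arrays, but Sst (0.43) and Iapp (-0.35) passed it without the second I-BET151 array. Ins2 (0.29) and Pyy (-0.25) passed it without the first. Without the first control array, Sst (0.27) and Pyy (-0.202) did, against 0.199 for Ghrl. Ghrelin is an appetite-stimulating peptide, made in the embryonic islet and in the stomach. The Ghrl intensity was 285 and 282 in I-BET151 buds, 289 and 401 in JQ1 buds, and 228 and 247 in control buds. All 4 inhibitor arrays were above both controls, the second JQ1 array stood apart from the other 3, and the I-BET151 arrays lay close together. Group means were 283.5 ± 2.12 for I-BET151, 345 ± 79.2 for JQ1 and 237.5 ± 13.4 for control (SD, n = 2). The ratio to control was 1.20 for I-BET151 (log2 change 0.26 ± 0.17, limma adjusted p = 0.484) and 1.44 for JQ1 (0.52 ± 0.17, adjusted p = 0.173). The interval of the JQ1 ratio ran from 1.06 to 1.94, and takes no account of how many genes were tested. Among the 12005 genes at or above the median intensity alone, the same JQ1 value had a limma adjusted p of 0.0488. In that fit 2373 of the 12005 genes were called under JQ1, so the call does not set Ghrl apart. Without the second JQ1 array, over all genes, the log2 change was 0.28.

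Liver transcripts varied between the same arrays. The 6 liver markers, none of them at the floor of the table, summed to 1066 and 2322 in I-BET151 buds, 1073 and 2743 in JQ1 buds, and 3105 and 2788 in control buds. The markers did not vary alike. Albumin (Alb) was at 35 and 421 in I-BET151 buds, 43 and 753 in JQ1 buds, and 179 and 58 in control buds, so the second JQ1 array was highest in Alb and in Ghrl. Afp and Apoa1 were highest there too, Afp with 81 and 383 in I-BET151 buds, 74 and 522 in JQ1 buds, and 388 and 279 in control buds. Fgb, Trf and Serpina1b were instead highest on the control arrays, Fgb with 83 and 123 in I-BET151 buds, 74 and 144 in JQ1 buds, and 306 and 273 in control buds. The part of these differences in the Ghrl value was not tested.

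Ins2 and Iapp are products of beta cells, insulin 2 and islet amyloid polypeptide. Ins2 lay near the lowest value of the table, 5, with 9 and 11 in I-BET151 buds, 10 and 9 in JQ1 buds, and 9 on both control arrays. Values are rounded to whole numbers, and 1 unit at this level is a step of 0.14 on the log2 scale, so changes of this size could not be resolved. Iapp was at 18 and 23 in I-BET151 buds, 21 and 20 in JQ1 buds, and 23 on both control arrays. The JQ1 arrays were below the controls and the I-BET151 arrays reached them. The log2 change of Iapp was -0.18 ± 0.13 under I-BET151 (limma adjusted p = 0.534) and -0.17 ± 0.13 under JQ1 (adjusted p = 0.540), where 1 unit is worth 0.07.

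Sst encodes somatostatin, the inhibitory hormone of delta cells. It was at 77 and 57 in I-BET151 buds, 68 and 62 in JQ1 buds, and 59 and 55 in control buds. The JQ1 arrays were above both controls and the second I-BET151 array lay between the controls. Log2 changes of Sst were 0.22 ± 0.16 and 0.19 ± 0.16 under I-BET151 and JQ1 (limma adjusted p = 0.539 and 0.576). The I-BET151 value was 0.43 without the second I-BET151 array and 0.00089 without the first. Gast encodes gastrin, a hormone of the stomach antrum that islet cells make before birth. Gast was at 136 and 109 in I-BET151 buds, 112 and 109 in JQ1 buds, and 119 and 122 in control buds. The I-BET151 arrays spanned the controls and the JQ1 arrays were below them, with log2 changes of 0.02 ± 0.12 and -0.13 ± 0.12 (limma adjusted p = 0.998 and 0.620).

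**Figure D2:**
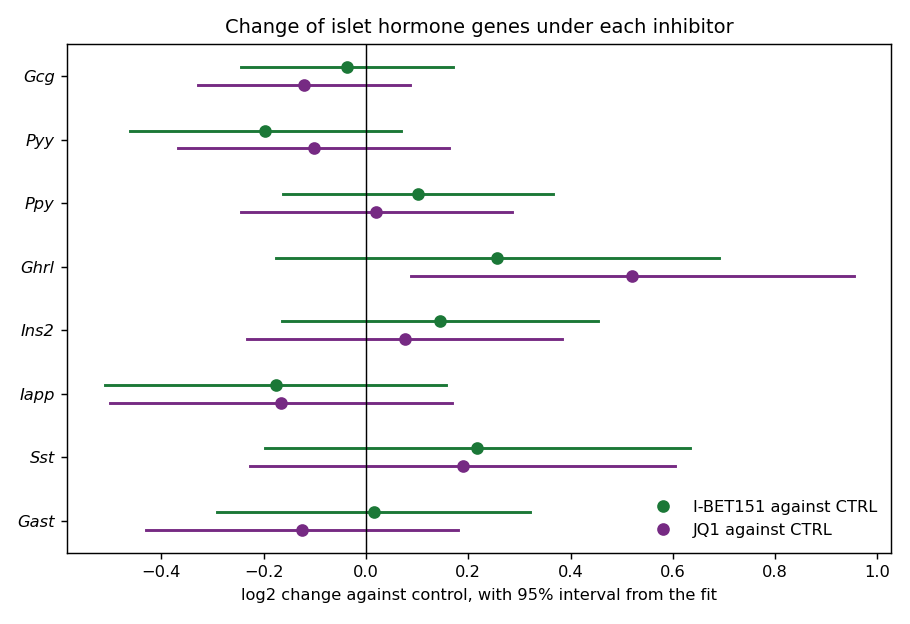
Log2 change of each hormone gene against control (points) with its 95% interval from the fit (lines), I-BET151 above JQ1 in each row. The JQ1 interval of Ghrl, which starts at 0.09, lies to the right of 0, and the other 15 intervals cover 0.

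Placement of the arrays was near the background. Under I-BET151, 4 of 8 hormone genes (Gcg, Ppy, Pyy and Ghrl) had both arrays on one side of both controls, and 42.1% of all genes did. Under JQ1 there were 5 (Gcg, Sst, Ghrl, Iapp and Gast), beside 44.9% of all genes. Gcg and Ghrl had all 4 inhibitor arrays on one side, Gcg below and Ghrl above, beside 29.4% of all genes. Control had the highest group mean of Gcg, Pyy and Iapp, the lowest of Ghrl, Ins2, Sst and Ppy, and the middle one of Gast. Under a single inhibitor, the 95% interval of the difference from control covered 0 for all but Ghrl under JQ1, and no p adjusted over all genes passed. The I-BET151 and JQ1 arrays overlapped for 7 of the 8 genes. For Ghrl the JQ1 arrays, 289 and 401, were above the I-BET151 arrays, 285 and 282. The share of all genes without such overlap was not counted, so this does not set Ghrl apart.

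**Figure D3:**
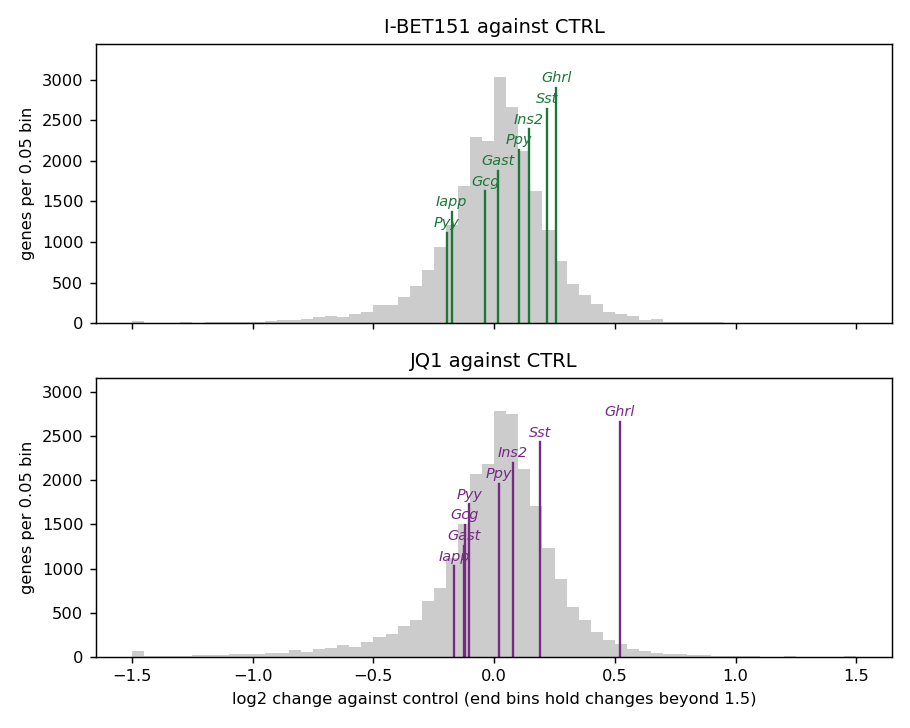
Histograms of the log2 change of all 24010 genes (grey, genes per bin of 0.05) with the hormone genes marked by lines, I-BET151 above and JQ1 below. The lines lie between -0.20 and 0.26 except that of Ghrl under JQ1, at 0.52.

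Intensity patterns over the 6 arrays were compared between each of the 4 hormone genes with a mean intensity of at least 100 and all 9932 genes as bright. The 3 genes most like Gcg by Pearson's r of log2 intensity were Ltbp3 (r = 0.995), Cacnb2 (0.967) and Tcf3 (0.966). Those most like Pyy were Naf1 (0.968), Cenpf (0.967) and Coro1a (0.966). Ghrl was most like Irx2 (0.981), which encodes an Iroquois transcription factor of glucagon cells, followed by Paip2 (0.978) and Fxr2 (0.978). Irx2 was at 179 and 168 in I-BET151 buds, 164 and 239 in JQ1 buds, and 124 and 144 in control buds, so it too was highest on the second JQ1 array. Gast was most like Mtif2 (0.980), Tyms (0.965) and Lmo4 (0.964). Skipped in these rankings were predicted or clone-named genes, small RNAs, olfactory and vomeronasal receptors, and genes that RefSeq lists as other than protein coding. The r values are the highest among the remaining genes, over 6 arrays that share 3 treatments and 1 normalization. They serve as a description. Between hormone genes, r was 0.65 for Gcg with Pyy and -0.18 for Gcg with Ghrl.

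Transcription factors that set islet lineages formed the first of 4 lists around the hormones. Of 20 such factors measured, I-BET151 gave 0 calls, and with JQ1 2 rose and 0 fell. Calls over all genes were 1.13% under I-BET151 and 3.80% under JQ1. Neurod1, a factor that activates hormone genes in endocrine cells, averaged 251 ± 28.3 in I-BET151 buds, 278 ± 1.41 in JQ1 buds and 155.5 ± 12.0 in control buds (SD, n = 2). It rose 1.79-fold under JQ1 (limma adjusted p = 0.0313). The I-BET151 ratio of 1.61 missed the threshold (adjusted p = 0.0702). Mnx1, a motor neuron and beta cell factor, rose 1.58-fold under JQ1 (adjusted p = 0.0466), with 99.0 ± 5.66 in I-BET151 buds, 101 ± 9.90 in JQ1 buds and 64.0 ± 4.24 in control buds. St18, a zinc finger gene of endocrine cells, was at 36.0 ± 5.66, 35.0 ± 1.41 and 54.0 ± 2.83 in I-BET151, JQ1 and control buds and was not called. The median log2 change of these factors was 0.16 and 0.06 under I-BET151 and JQ1. Gcg and Iapp, whose windows hold the E-box as 14.4% of all windows do, had the values given above and were not called. Whether Neurod1 acts on them was not tested, and Ins2 had no window to search.

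Genes that process prohormones or fill granules were not called either, 0 of 17 under each inhibitor. Of all genes, 1.13% were called under I-BET151 and 3.80% under JQ1. Mboat4 encodes the enzyme that attaches a fatty acid to ghrelin. It was at 37 and 31 in I-BET151 buds, 32 and 33 in JQ1 buds, and 45 and 48 in control buds. All 4 inhibitor Mboat4 arrays lay below the controls, whereas those of Ghrl lay above, with Mboat4 log2 changes of -0.46 ± 0.10 and -0.52 ± 0.10 (limma adjusted p = 0.128 and 0.073). Pcsk1, a convertase that cuts proinsulin and proglucagon, was at 41.5 ± 3.54 in I-BET151 buds, 36.5 ± 3.54 in JQ1 buds and 53.5 ± 6.36 in control buds. Its inhibitor gene Pcsk1n was at 171.5 ± 12.0, 202.5 ± 13.4 and 153.5 ± 2.12 in I-BET151, JQ1 and control buds. Pam, the enzyme that amidates peptides such as gastrin, was at 585.5 ± 7.78 in I-BET151 buds, 549.5 ± 20.5 in JQ1 buds and 663 ± 24.0 in control buds. The granule proteins Chga and Scg3 had log2 changes of 0.36 and 0.38 in I-BET151 buds, against 0.38 and 0.34 in JQ1 buds, each relative to control. None of these genes passed the test.

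Other peptide hormone genes formed the third list. Of 10 measured, Nts fell under both inhibitors, and Trh joined it for the mean of both. Over all genes, 1.13% were called under I-BET151, 3.80% under JQ1 and 4.92% for the mean of both. Nts, the neurotensin gene, was at 20 and 25 in I-BET151 buds, 20 and 19 in JQ1 buds, and 50 and 48 in control buds. All inhibitor arrays lay below both controls, and 29.4% of all genes had them on one side. Nts was 2.19-fold lower in I-BET151 buds (limma adjusted p = 0.0449) and 2.51-fold lower in JQ1 buds (adjusted p = 0.0187). Trh, the thyrotropin-releasing hormone gene, which early islet cells also express, was at 31 and 27 in I-BET151 buds, 32 and 31 in JQ1 buds, and 45 and 51 in control buds. For the mean of both inhibitors it was 1.59-fold lower (adjusted p = 0.0319). Cck, the cholecystokinin gene, was at 94.5 ± 0.707 in I-BET151 buds, 88.5 ± 10.6 in JQ1 buds and 145.5 ± 24.7 in control buds, and was not called. The median log2 change of the 10 genes was -0.11 and -0.19 under I-BET151 and JQ1. The 5 neural markers summed to 813 and 966 in I-BET151 buds, 772 and 827 in JQ1 buds, and 1817 and 1880 in control buds, with a lowest single value of 19. Of these, 2 were called lower under I-BET151 (Stmn2 and Ednrb) and 3 under JQ1 (Fabp7 as well). Their part in the values of Nts and Trh was not tested, nor was any difference between these genes and the 8 islet hormones.

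Among 21 receptor genes for the 8 hormones, 1 fell under I-BET151, Cckar, and 2 fell under JQ1, Cckar and Ramp2. The share of all genes called was 1.13% under I-BET151 and 3.80% under JQ1. Cckar binds cholecystokinin and, less tightly, gastrin, and was at 50 and 66 in I-BET151 buds, 31 and 37 in JQ1 buds, and 321 and 398 in control buds. Ramp2, a partner of calcitonin-family receptors that is abundant in endothelium, averaged 138.5 ± 0.707 in I-BET151 buds, 122.5 ± 14.8 in JQ1 buds and 233 ± 24.0 in control buds. It fell 1.90-fold under JQ1 (limma adjusted p = 0.0322) beside the fall of endothelial markers, and the part of endothelium in it was not tested. Npy1r, a receptor for peptide YY, was at 24 and 29 in I-BET151 buds, 28 and 22 in JQ1 buds, and 60 and 44 in control buds, and was not called (adjusted p = 0.121 and 0.0732). Igf1r, which binds insulin weakly, had log2 changes of 0.38 under each inhibitor and was not called. The glucagon receptor gene Gcgr, at 23 to 28, and the ghrelin receptor gene Ghsr, at 39 to 58, were dim in all groups.

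**Figure D4:**
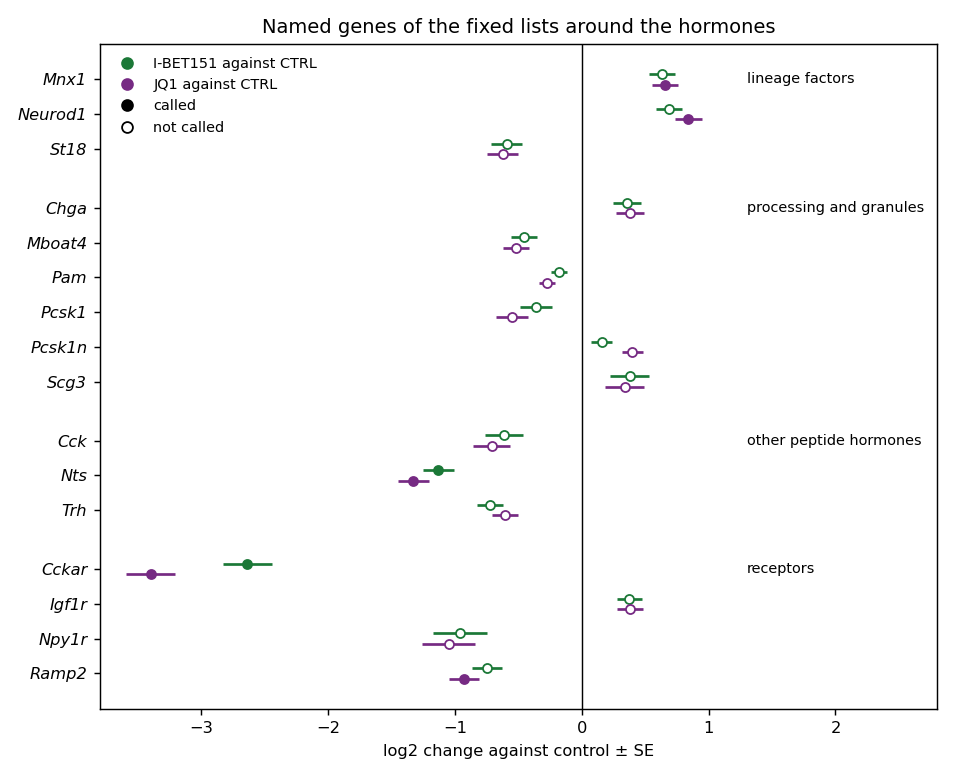
Log2 change ± SE against control of the named genes from the lists of lineage factors, processing and granule genes, other peptide hormones and receptors, I-BET151 above JQ1, with filled points for called genes. Cckar lies at -2.64 and -3.40 and Nts at -1.13 and -1.33, and the processing and granule genes have open points only.

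Markers of the tissues in the culture were set beside the hormones. The 6 epithelial markers, which include Epcam and Cdh1, summed to 2957 and 3067 in I-BET151 buds, 2871 and 3094 in JQ1 buds, and 3597 and 3695 in control buds. Of these, Cldn3 fell under I-BET151, and Cldn3 and Krt18 under JQ1. Endothelial markers summed to 3751 and 4019 in I-BET151 buds, 3480 and 3584 in JQ1 buds, and 5291 and 5382 in control buds, with 2 of 6 called lower under I-BET151 and 5 of 6 under JQ1. Mesenchymal markers summed to 4022 and 4068 in I-BET151 buds, 3817 and 3692 in JQ1 buds, and 5519 and 5684 in control buds, with 2 and 3 of 6 called lower, and neural markers are given above. In the same RNA 0 of 8 hormone genes were called, beside 1.13% of all genes under I-BET151 and 3.80% under JQ1. Any difference between the hormone genes and these markers was not tested. Ghrl, Gast and Pyy are also hormones of the gut. Of 12 stomach and intestine markers, Barx1 was bright (1261 to 1612 on all arrays) and the intestinal factor gene Cdx2 dim (34 to 45), and Vil1 fell under both inhibitors. Summed, these markers were at 1564 and 1757 in I-BET151 buds, 1805 and 1915 in JQ1 buds, and 1584 and 1567 in control buds, most of it Barx1. Without Barx1 the sums were 303 and 285 in I-BET151 buds, 297 and 303 in JQ1 buds, and 294 and 299 in control buds. The part of these tissues in the hormone values was not tested.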

How the data were processed

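RNA of 6 pools of buds was hybridised to Affymetrix whole-transcript arrays. The authors deposited intensity values on a linear scale, normalized with RMA (background correction, quantile normalization and a probe summary), per the submitters' processing notes; no RMA version is given in the sources used here. The values are whole numbers from 5 upward, with array medians of 54 to 57, and log2 values of replicate arrays correlated at 0.995 to 0.996. I-BET151 arrays correlated about as highly with JQ1 arrays, at 0.995 to 0.996, and inhibitor arrays with control arrays at 0.990 to 0.993. Quantile normalization hides a change shared by most transcripts, and depth has no count equivalent on arrays, so 2 arrays per group limit the precision.

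Of 24972 rows, 24014 had 1 symbol in the platform annotation, none had several, and 958 were unnamed and not analysed here. For 4 symbols with several rows the brightest row was kept, which left 24010 genes. limma 3.58.1 in R 4.3.3 (lmFit and eBayes on log2 intensity, no pseudocount or filter) was fitted to all 6 arrays, with 3 residual and 1.76 prior degrees of freedom and Benjamini-Hochberg adjustment over all genes. Only called genes are said to have risen or fallen. The fit was tested on simulated data. All 8 hormone genes were named by rule. In the other lists the called genes were named, with the 3 smallest p for the mean of both inhibitors where fewer than 3 were called and, among receptors and processing genes, the extremes. Gcgr, Ghsr and the tissue markers were named after their values were seen. The members and lists were chosen with earlier results of these data known. Of 12 other hormones, 24 lineage factors and 19 processing genes listed, 10, 20 and 17 had a named row, and the rest were not analysed here. The alternatives were a replicate block, median centring, a filter on dim genes, a pseudocount of 16, an intensity trend in the prior, fits of 2 groups, and leaving out each array.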

Additional observations from a re-analysis of the deposited data

How the results depend on the processing

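That none of the 8 hormone genes was called held under I-BET151 in all alternatives. Of the 12005 genes at or above the median mean intensity, which hold 6 of the 8, 2373 were called under JQ1. Ghrl was the 1 hormone gene among them (limma adjusted p = 0.0488). Leaving out each array in turn gave 0 hormone genes in all 3 comparisons, but this says little, since 0 of all genes were then called. With the dim genes also left out, an alternative chosen after seeing the data, 395 to 1059 of all genes were called under I-BET151, 968 to 2221 under JQ1 and 994 to 2331 for the mean of both, with 0, 0 to 1 and 0 to 1 hormone genes. The hormone genes were Ghrl without JQ1 array 1 (log2 change 0.76, adjusted p = 0.0138 under JQ1, and 0.51, adjusted p = 0.0131 for the mean of both) and Sst without I-BET151 array 2 (0.31, adjusted p = 0.0467 for the mean of both). The log2 change of Ghrl under JQ1 ranged from 0.28 to 0.76 over the alternatives set at the start, with adjusted p of 0.0488 to 0.438.

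The count of all genes, 272 under I-BET151, 912 under JQ1 and 1181 for the mean of both, depended on the fit. It was 533 and 1391 under I-BET151 and JQ1 with each array centred on its median, 446 and 1377 with an intensity trend, 661, 1615 and 1963 with a pseudocount of 16, and 1438, 2373 and 2689 with dim genes left out. With the replicate block it was 0 in all 3 comparisons, and 0 in both when only 2 groups were fitted. Over all genes, deviations of same-numbered arrays correlated at -0.02 to -0.04. The liver marker sum was nonetheless higher on the second array of each inhibitor, at 1066 and 2322 for I-BET151 and 1073 and 2743 for JQ1. In control buds it was 3105 and 2788. Whether same-numbered arrays share a batch was not tested. With the block 0 hormone genes were called, which says little, since 0 of all genes were. Centring also moved the split of rises and falls, to 183 and 350 (63 and 209 without it) under I-BET151, 664 and 727 (272 and 640) under JQ1, and 881 and 857 (382 and 799) for the mean of both. Signs turned for values near 0: with centring, Gcg under I-BET151 was 0.0148 and Gast for the mean of both was 0.0032. Leaving out 1 array, alone or with the dim genes, put Gast under I-BET151 at -0.14 to 0.17, Gast for the mean of both at -0.13 to 0.0248, Ppy under JQ1 at -0.11 to 0.15, Ppy for the mean of both at -0.0037 to 0.13 and Pyy under JQ1 at -0.23 to 0.0206. The causes were not tested.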
